A study of Homo sapiens with 6 samples.

Results

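NPTX1, PTPRN, BDNF, SCG2, SCG5, GRIN2B and GABRQ are genes best known from neurons and neuroendocrine cells, and RNA from all 7 was found in cultured A549 cells, a human lung adenocarcinoma line. They were taken by symbol from a table of 24846 genes. The list of symbols was selected on the measured difference of these genes between the groups, with earlier results of these data known, so those differences are given as a description, with no test. The 7 genes are held together by a loose theme, not by shared structure, and GRIN2B, GABRQ and PTPRN encode membrane proteins, not secreted ones. PolyA-selected RNA was sequenced from 3 A549 cultures that received amorphous calcium carbonate (ACC), at 2 mM elemental calcium, in DMEM/F12 depleted of calcium, and from 3 control cultures in regular DMEM/F12, whose calcium is calcium chloride, each kept for 8 passages. Serum and antibiotics were added to both media, the genotype was WT in both groups, and the source and the amount of calcium changed together. ACC also brought carbonate, which the study describes as a buffer of medium pH, and sodium tripolyphosphate as a stabilizer. Calcium, carbonate, pH and stabilizer cannot be told apart in this design. All 6 samples come from 1 cell line. The cultures are described as triplicates over the passages, without a statement of how they were kept apart. The p-values therefore rest on a spread among 3 libraries per group that may be technical, and that is partly shared across genes.

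The libraries held between 21771645 and 24805486 reads in genes, and the values are normalized counts, that is, reads per gene divided by a size factor per library. Of the 24846 genes, 19318 reached a sum of 10 normalized counts over the 6 libraries and were tested with limma on log2(normalized count + 1). The log2 ratio, or log2 fold change, is the mean with ACC minus the mean in control on that scale, with its standard error (SE). limma shrinks each gene's variance toward that of genes of similar level. An SE can therefore be smaller or larger than the gene's own replicates give. A gene was called when its Benjamini-Hochberg adjusted p was 0.05 or less, its change was at least 2-fold and at least 1 library held 30 reads. Epithelial markers were abundant, with KRT7, a simple-epithelium keratin, at 63165.9 ± 1087.9 normalized counts in ACC cultures and 89497.6 ± 2835.4 in controls (SD, n = 3 each). The summed epithelial list lay between 173358.7 and 179664.3 with ACC and between 220624.6 and 225498.4 in control, with 2 of 8 genes called higher and 0 lower. Most of that sum was the keratins KRT7, KRT8 and KRT18, the 3 genes that were lower at the adjusted p alone. The other 5 genes were higher, and the list median log2 ratio was 0.63. The summed fibroblast markers lay between 583.1 and 711.8 with ACC and between 2359.9 and 2539.5 in control, with 3 of 6 tested genes called lower and 0 higher. Most of that sum was 1 gene, COL1A1, at 463.7 ± 48.1 with ACC and 2056.9 ± 100.4 in control. At the adjusted p alone, 6 of the 6 tested genes were lower. Of all genes tested, 2.77% were called higher and 2.24% lower, and at the adjusted p alone 21.3% were higher and 21.9% lower. The leukocyte markers lay between 7.46 and 11.2 with ACC and between 2.67 and 6.74 in control, with CD3E at 0 in every library. Mitochondrial genes took 4.39% to 5.70% of the reads with ACC and 4.04% to 4.29% in control. The part of these shifts in the results below was not tested.

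Neurons and neuroendocrine cells store peptides in dense-core vesicles, where granins pack the cargo and processing enzymes cut precursors into active peptides, and they release that cargo when calcium enters the cell. NPTX1 is a secreted pentraxin that gathers AMPA-type glutamate receptors at synapses, and BDNF is a neurotrophin that signals through the receptor kinase NTRK2. SCG2 is a granin and the precursor of the peptide secretoneurin, SCG5 (7B2) is the chaperone of the prohormone convertase PCSK2, and PTPRN (IA-2) is a phosphatase-like protein of the dense-core vesicle membrane without phosphatase activity. GRIN2B is a glutamate-binding subunit of NMDA receptors and GABRQ is the theta subunit of GABA-A receptors. The summed markers of pulmonary neuroendocrine cells lay between 14943 and 15037.4 normalized counts with ACC and between 12566.6 and 12662 in control. Most of that sum was 1 gene, UCHL1, a ubiquitin hydrolase abundant in neurons, at 13443.5 ± 60.2 with ACC and 11182.3 ± 42.6 in the controls (SD, n = 3 each), and NEUROD1, INSM1, CALCA and GRP, which help define those cells, were not analysed here.

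Lower with ACC were 6 of the 7 genes, and SCG5 alone was higher. The 3 ACC and the 3 control libraries did not overlap for any of the 7, where the groups of 51.4% of all genes tested did not overlap. All 7 passed the filter on low values, and 6 met the thresholds of a call, 5 of them lower and SCG5 higher, where 2.24% of all genes tested were called lower and 2.77% higher. BDNF was short of the 2-fold threshold. At the adjusted p alone, 21.9% of all genes tested were lower and 21.3% higher. Since these differences singled the genes out, nothing is read from the counts. In RNA from whole cultures, fewer cells with a transcript and less transcript per cell cannot be told apart.

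Among the secreted ligands, NPTX1 (ENSG00000171246, chromosome 17 of GRCh38 from 80466834 to 80477843, minus strand) had 660.55, 624.12 and 515.57 normalized counts in the ACC libraries and 9914, 9693.42 and 11403.31 in the control libraries. Every ACC library lay far below every control library, the lowest control value being 14.7 times the highest ACC value. Its mean was 600.1 ± 75.4 in the ACC group and 10336.9 ± 930.1 in the control group (SD, n = 3 each), a log2 ratio of -4.11 with an SE of 0.0725. Of the 19318 genes tested, 1 had a lower fold change, which was SPARC.
BDNF (ENSG00000176697, chromosome 11 from 27654893 to 27722058, minus strand) had 572.98, 587.52 and 577.97 normalized counts with ACC and 938.68, 929.96 and 891.71 in control. These libraries were the most even of the 7 genes within each group, and the groups lay well apart for so small a change. The means were 579.5 ± 7.39 and 920.1 ± 25.0 (SD, n = 3 each), so that ACC cultures held 63.0% of the control level, and the log2 ratio was -0.67 with an SE of 0.0508. BDNF-AS, a long noncoding RNA on the opposite strand that overlaps BDNF, had 23.29, 14.45 and 10.23 normalized counts with ACC and 3.85, 10.67 and 5.7 in control. Its groups overlapped at the lowest ACC and the highest control library, and its log2 ratio was 1.16 (SE 0.393, limma adjusted p = 0.0232) without enough reads for a call. No source used here states whether strand was used in counting, so how reads were assigned where the 2 genes overlap is not known.

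**Figure D1:**
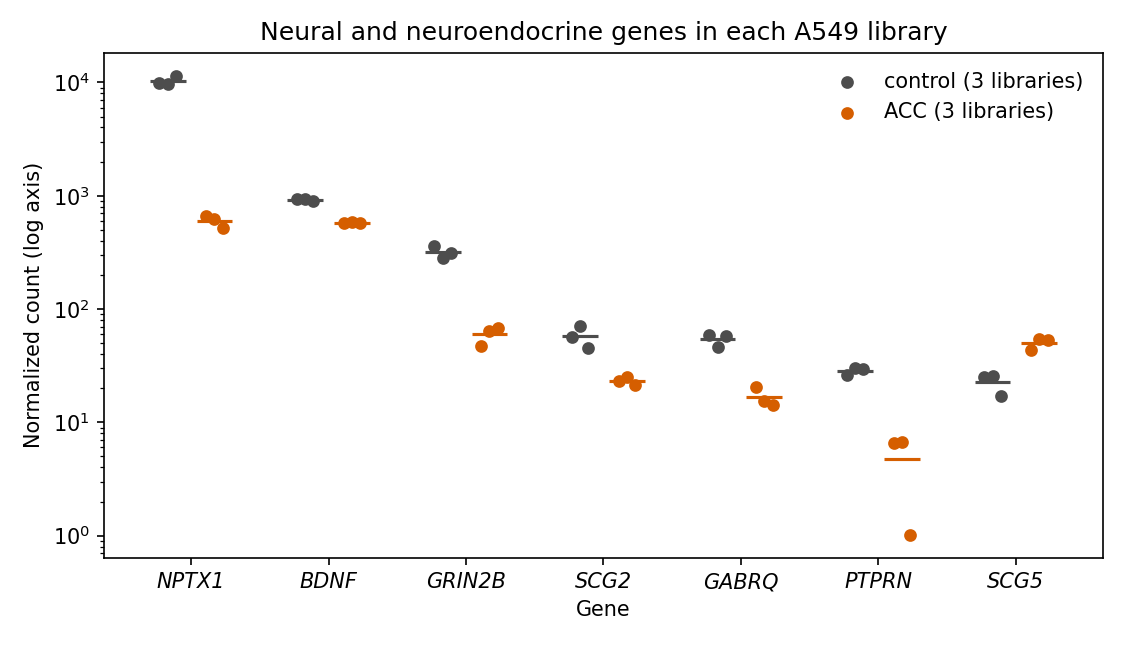
Normalized counts (log axis) of the 7 genes in each library, with control in grey and ACC in orange, 3 points per group and a line at the group mean. The groups do not overlap for any gene, SCG5 alone is higher with ACC, and the PTPRN point at 1.02 is the ACC library with 1 read.

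The 3 genes of the dense-core vesicle had far fewer reads, and so a larger counting error. SCG2 (ENSG00000171951, chromosome 2 from 223596940 to 223602361, minus strand) had 23.29, 25.04 and 21.48 normalized counts with ACC and 56.86, 70.24 and 45.58 in control. All ACC libraries were below all control libraries, whose lowest and highest values differed more from each other than any ACC values did. The means were 23.3 ± 1.78 and 57.6 ± 12.3 (SD, n = 3 each), a log2 ratio of -1.25 with an SE of 0.203.
PTPRN (ENSG00000054356, chromosome 2 from 219289623 to 219309648, minus strand) had 6.52, 6.74 and 1.02 normalized counts with ACC, which are 7, 7 and 1 reads, and 26.02, 30.23 and 29.44 in control, which are 27, 34 and 31 reads. The third ACC library stands apart from the other two by a few reads only, and the control libraries lie close to the minimum of 30 reads on either side. The means were 4.76 ± 3.24 and 28.6 ± 2.24 (SD, n = 3 each) and the log2 ratio was -2.59 with an SE of 0.431. Without ACC replicate 3 it was -1.95, and with a pseudocount of 5 in place of 1 it was -1.84.
SCG5 (ENSG00000166922, chromosome 15 from 32641676 to 32697098, plus strand) had 43.79, 53.94 and 53.19 normalized counts with ACC and 25.06, 25.78 and 17.09 in control. It was the one gene of the 7 whose ACC libraries all lay above its control libraries. Its means were 50.3 ± 5.66 and 22.6 ± 4.82 (SD, n = 3 each), and its log2 ratio was 1.13 with an SE of 0.213. Without control replicate 3, the library with the fewest SCG5 reads, the log2 ratio was 0.95, below the 2-fold threshold. The annotation also holds a readthrough gene, ARHGAP11A-SCG5, on the same strand, and the part of such transcripts in the SCG5 reads was not tested.

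Both receptor subunits were lower with ACC. GRIN2B (ENSG00000273079, chromosome 12 from 13437942 to 13982002, minus strand) had 47.52, 64.53 and 67.51 normalized counts with ACC and 359.48, 281.83 and 315.28 in control. The lowest control library held 4.17 times the highest ACC library. Its means were 59.9 ± 10.8 and 318.9 ± 38.9 (SD, n = 3 each), a log2 ratio of -2.40 with an SE of 0.132.
GABRQ (ENSG00000268089, chromosome X from 152637895 to 152657542, plus strand) had 20.5, 15.41 and 14.32 normalized counts with ACC and 58.79, 46.23 and 57.93 in control. The groups were separated by a factor of 2.26 between the highest ACC and the lowest control library. The means were 16.7 ± 3.30 and 54.3 ± 7.02 (SD, n = 3 each), and the log2 ratio was -1.65 with an SE of 0.217.

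**Figure D2:**
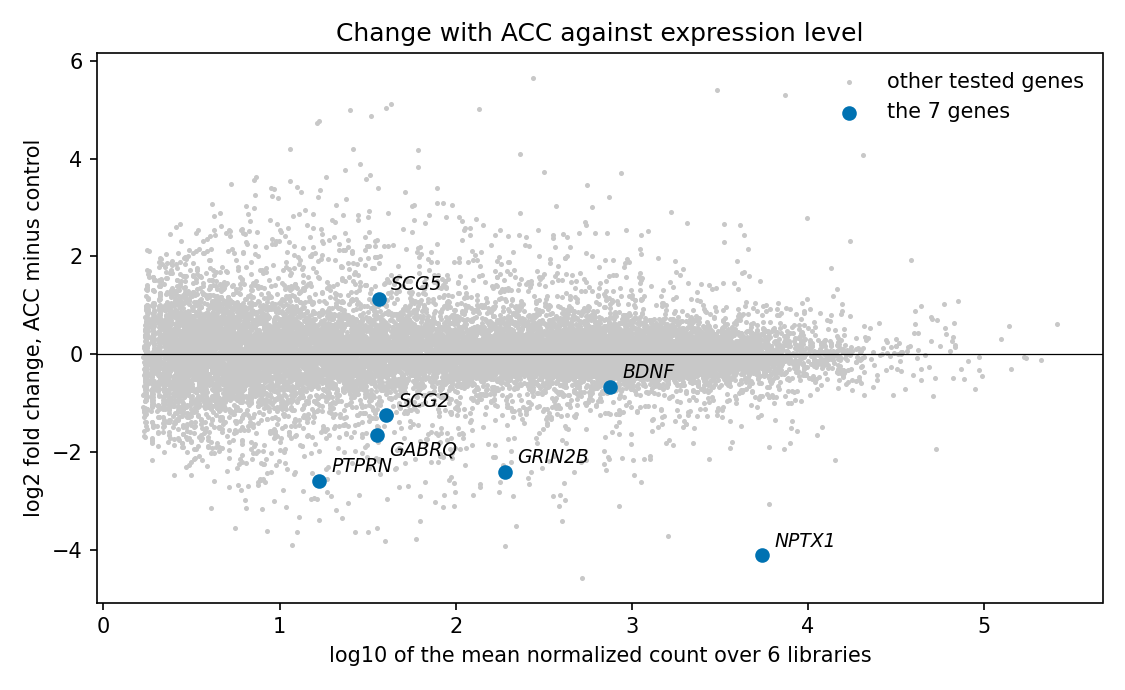
Log2 ratio (ACC minus control) against the log10 mean normalized count for 19318 tested genes in grey, with the 7 genes in blue. NPTX1 is at the lower right edge at -4.11, BDNF is near the grey band at -0.67, and SCG5 alone of the 7 is above 0.

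The spread between replicates was set against the spread that counting reads gives. For NPTX1 the coefficient of variation was 9.0% in control and 12.6% with ACC, where counting error alone gives 0.951% and 4.02%. Its replicates thus differed by well more than counting error, and its SE, with the shrunken variance, does not carry that spread in full. For GRIN2B the coefficient of variation was 12.2% in control against 5.42% from counting. For GABRQ and SCG5 in control it was 12.9% and 21.3%, against 13.1% and 20.3% from counting. BDNF varied less than counting gives in both groups, at 2.72% and 1.27% against 3.18% and 4.09%, which can happen with 3 libraries. For SCG2 it was 21.4% in control against 12.7% from counting, but 7.65% with ACC against 20.4%. For PTPRN it was 7.83% in control against 18.1% and 68.1% with ACC against 44.7%, the ACC libraries holding 1 to 7 reads.

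Divided by exon length, the control levels ran from NPTX1 at 1472.5 ± 132.5 normalized counts per kb (SD, n = 3), through BDNF at 118.9 ± 3.23 and SCG2 at 22.3 ± 4.79, to PTPRN at 3.47 ± 0.272. Between SCG2 and PTPRN lay SCG5 at 10.3 ± 2.20, GRIN2B at 10.2 ± 1.25 and GABRQ at 8.40 ± 1.08, where SCG5 lay within its own spread of both others, while GRIN2B and GABRQ differed by more than either SD. With ACC the first place was close, with NPTX1 at 85.5 ± 10.7 and BDNF at 74.9 ± 0.955 per kb, within the spread of NPTX1. SCG5 followed at 22.9 ± 2.58, ahead of SCG2 at 9.03 ± 0.691, so that the order of these vesicle genes in the ACC libraries was the reverse of that in the control libraries. GABRQ at 2.59 ± 0.510, GRIN2B at 1.92 ± 0.346 and PTPRN at 0.579 ± 0.394 came last. The exon length is the union of all annotated exons, 31.1 kb for GRIN2B and 2.20 kb for SCG5, and a gene that uses few of its exons has a higher level than given here.

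**Figure D3:**
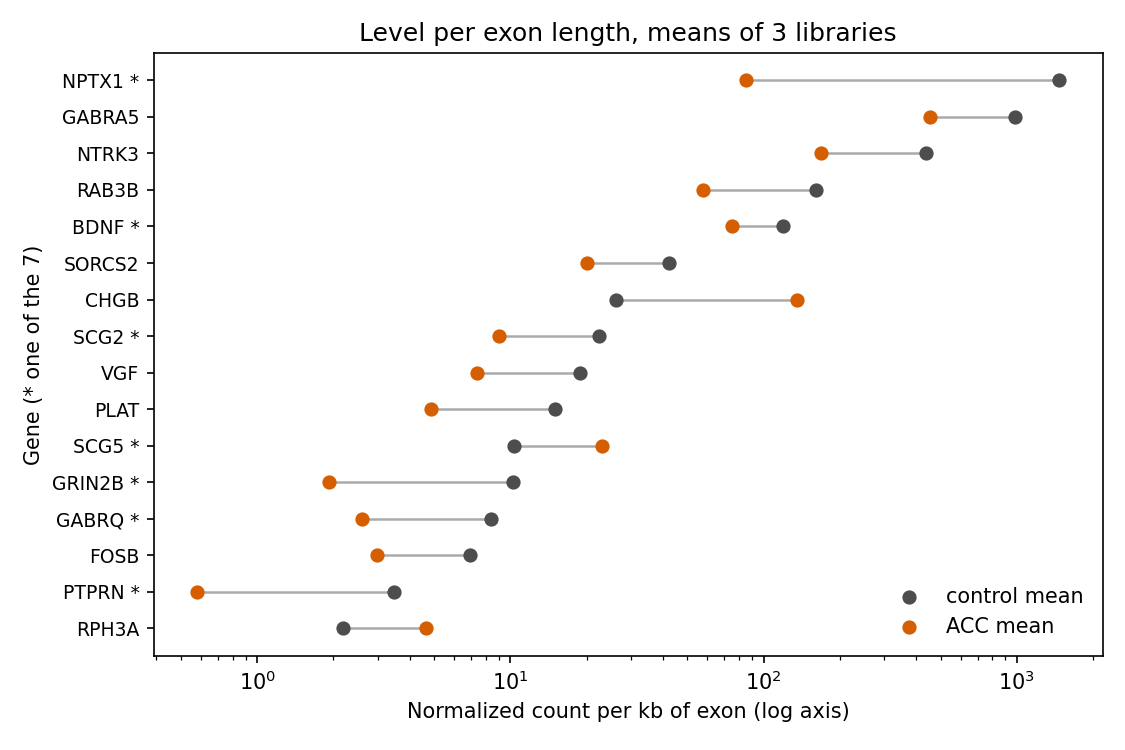
Mean normalized count per kb of exon (log axis) in control (grey) and ACC (orange) libraries, n = 3 each, for the 7 genes (starred) and 9 of the 10 related genes that were called. NPTX1 goes from the top of the plot at 1472.5 to 85.5, and CHGB, SCG5 and RPH3A are the genes with the ACC point to the right.

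Promoter windows from RefSeq (GRCh38.p14, 250 bases before to 50 after a transcription start) were searched for the cAMP response element half-site TGACG, the site bound by CREB, a calcium- and cAMP-responsive factor known to control BDNF. The search matched 5 of the 7 genes by symbol, with 12 windows, and NPTX1 and SCG2 had no entry. TGACG, on either strand, occurs in 6 of the 12 windows and in 24.6% of all 35116 windows. The full element TGACGTCA, which contains the half-site, is in none of the 12 and in 1.85% of all windows. Neither is TTCAGCACC, the left part of the element read by the neuronal gene repressor REST, which 0.376% of all windows hold. The right part, GGACAG, is in 1 BDNF window and in the GABRQ window, where 20.5% of all windows hold it. GABRQ has no half-site and 5 copies of the GC box GGGCGG, which 45.0% of all windows hold. The windows below are 1 for each gene with a half-site, shown because SCG5 and PTPRN, which lay on opposite sides of 0 with ACC, share the longer match TGACGCA (2.47% of all windows). Capitals mark TGACG or its reverse complement CGTCA.
SCG5 window, chr15:32641460-32641759, plus strand: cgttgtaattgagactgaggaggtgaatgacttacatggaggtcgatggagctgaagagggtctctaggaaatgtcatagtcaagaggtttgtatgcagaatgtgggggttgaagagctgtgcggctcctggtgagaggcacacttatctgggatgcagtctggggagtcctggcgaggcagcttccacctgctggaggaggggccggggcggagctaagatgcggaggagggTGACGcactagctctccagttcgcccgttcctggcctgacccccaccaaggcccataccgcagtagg
PTPRN window, chr2:219309352-219309651, minus strand: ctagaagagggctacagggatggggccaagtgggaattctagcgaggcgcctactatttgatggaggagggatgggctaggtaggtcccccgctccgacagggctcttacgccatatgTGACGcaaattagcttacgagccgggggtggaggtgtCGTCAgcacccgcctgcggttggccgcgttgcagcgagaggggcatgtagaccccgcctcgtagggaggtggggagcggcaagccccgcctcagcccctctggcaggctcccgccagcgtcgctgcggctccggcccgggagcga
BDNF window, chr11:27701572-27701871, minus strand: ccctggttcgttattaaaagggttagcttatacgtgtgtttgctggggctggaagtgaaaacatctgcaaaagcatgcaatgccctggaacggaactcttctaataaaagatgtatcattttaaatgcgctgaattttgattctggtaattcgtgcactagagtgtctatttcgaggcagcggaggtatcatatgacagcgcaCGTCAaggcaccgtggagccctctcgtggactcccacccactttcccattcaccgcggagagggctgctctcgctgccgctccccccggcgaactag
GRIN2B window, chr12:13982085-13982384, minus strand: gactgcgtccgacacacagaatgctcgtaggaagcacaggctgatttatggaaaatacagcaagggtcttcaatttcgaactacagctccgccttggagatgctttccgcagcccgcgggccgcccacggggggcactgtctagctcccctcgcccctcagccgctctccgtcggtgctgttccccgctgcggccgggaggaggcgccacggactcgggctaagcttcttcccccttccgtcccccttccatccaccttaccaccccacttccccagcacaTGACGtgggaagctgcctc
The match starts 17 bases before the start site in SCG5 and 132 and 95 bases before it in PTPRN. In this BDNF window, 1 of 5 for that gene, it starts 47 bases before, and in this GRIN2B window, 1 of 3, at base 32 of the transcript. A match is a stretch of letters, and binding was not measured.

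The genes next to the 7 on the chromosome were mostly not called. Of the 14 nearest protein-coding neighbours in the table, 1 on each side, 1 was called higher and 1 lower by limma (5.01% of all genes tested were called). GREM1, a secreted BMP antagonist 20.9 kb after SCG5, fell from 1493.9 ± 59.7 in control to 483.3 ± 38.3 (SD, n = 3 each, log2 ratio -1.63, SE 0.0592, limma adjusted p = 1.78e-13), while SCG5 was higher. On its other side ARHGAP11A, 1.74 kb away, had a log2 ratio of -0.23 (limma adjusted p = 0.000434). KCNE4, a potassium channel subunit 398.5 kb from SCG2, rose, with 63.35, 67.42 and 49.1 normalized counts with ACC against 27.95, 24.89 and 24.69 in control (log2 ratio 1.17, limma adjusted p = 5.6e-05). NPTX1 lies between ENDOV and RPTOR, which had log2 ratios of 0.12 and -0.13. GABRA3, a GABA-A subunit gene next to GABRQ, had 0.31 (limma adjusted p = 0.29). At less than 2-fold, KIF18A and LIN7C beside BDNF had -0.72 and -0.13 (limma adjusted p = 3.29e-06 and 0.0846). DNAJB2 and DNPEP beside PTPRN had -0.48 and -0.19 (limma adjusted p = 6.65e-07 and 0.00256), and AP1S3 beside SCG2 had -0.38 (limma adjusted p = 4.89e-05). EMP1 and ATF7IP beside GRIN2B had -0.09 and 0.05, and MAGEA3 beside GABRQ had 0.23. Whether neighbours moved with the 7 genes was not tested. This set of neighbours was added after the members' values were seen.

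Related genes were set out in 7 lists with 112 genes, of which 93 are in the table and 76 were tested. Of these, 2 were called higher and 8 lower, 13.2% of those tested, where 5.01% of all genes tested were called. At the adjusted p alone 18 were higher and 25 lower, 56.6% against 43.3% of all genes tested. The lists were written with earlier results of these data known, so nothing is read from these shares. Genes with at least 30 reads in 1 library made up 81.6% of the related genes and 71.7% of all genes tested, and the median log2 ratio was -0.04 for the related genes and 0.00 for all. edgeR and DESeq2 on the whole reads each called 10 related genes as well.

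**Figure D4:**
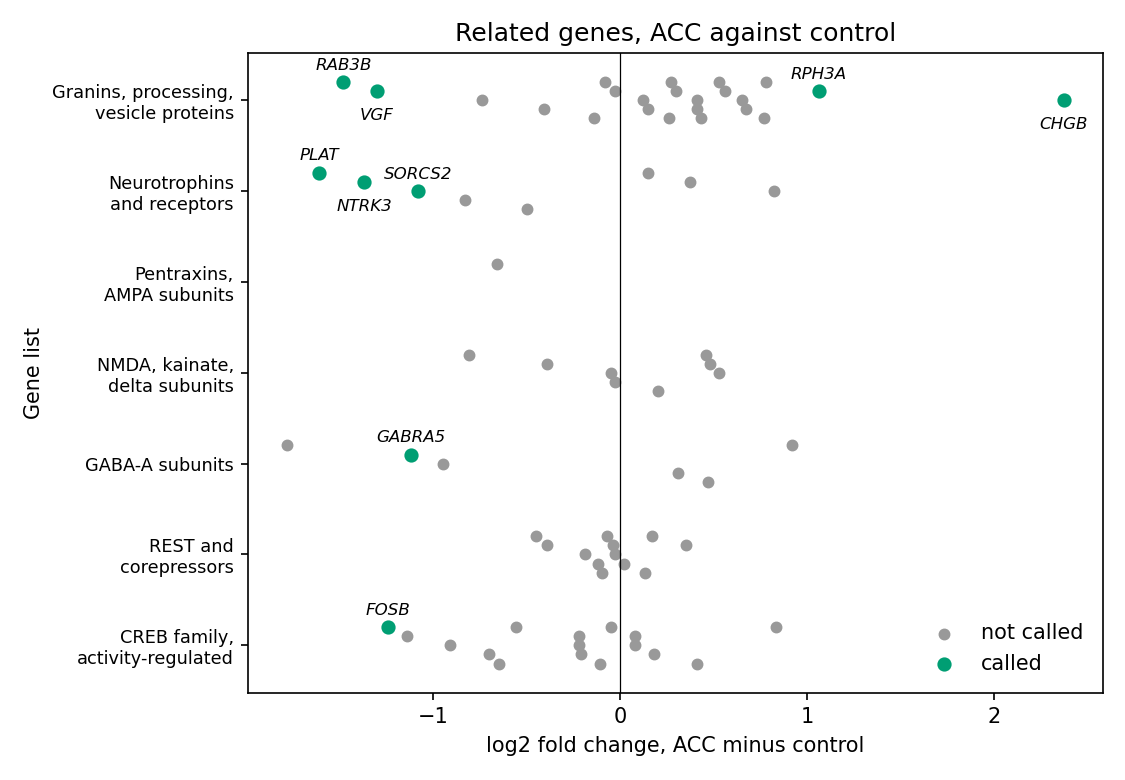
Log2 ratio (ACC minus control) of the tested related genes that are reported here, by list, with 9 of the 10 called genes shown and named in green. CHGB at 2.37 is farthest to the right, PLAT at -1.61 is the lowest called gene shown, and no gene of the REST list was called.

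Of 23 tested granins, processing enzymes and vesicle proteins, 2 were called higher and 2 lower. At the adjusted p alone 11 of them were higher and 4 lower, with a list median log2 ratio of 0.30 where that of all genes tested was 0.00. CHGB (chromogranin B), a granin of the same vesicles as SCG2, had 595.34, 570.18 and 636.28 normalized counts with ACC and 128.18, 129.8 and 92.12 in control. Every ACC library was far above every control library (log2 ratio 2.37, SE 0.108, limma adjusted p = 3.75e-12). VGF, another granin-like peptide precursor, moved the other way, from 50.3 ± 8.20 in control to 19.8 ± 3.13 with ACC (log2 ratio -1.30, limma adjusted p = 7.05e-05). So of the granins and their relatives, CHGB rose and VGF fell, while SCG2 was lower and SCG5 higher. CHGA (chromogranin A), named after its values were seen, had 26 reads at most and a log2 ratio of 0.77 (limma adjusted p = 0.0288). RAB3B, a small GTPase of regulated exocytosis, fell from 2067.1 ± 135.4 to 737.4 ± 17.8 normalized counts (log2 ratio -1.48, limma adjusted p = 7.76e-14). RPH3A, an effector of RAB3 proteins, rose from 22.5 ± 4.44 to 47.7 ± 7.87 (log2 ratio 1.06, limma adjusted p = 0.000625), a call that was lost without ACC replicate 2 or control replicate 2 and with a pseudocount of 5. SNAP25, a membrane fusion protein, had a log2 ratio of -0.74 (limma adjusted p = 4.76e-10), short of the 2-fold threshold.

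Neurotrophin genes and receptors had 4 of 9 tested genes called lower by limma and 0 higher, and edgeR and DESeq2 each called 4. At the adjusted p alone 2 were higher and 4 lower, where 21.3% of all genes tested were higher and 21.9% lower. NTRK3, the receptor kinase of neurotrophin-3, fell from 11692.4 ± 846.9 to 4521.4 ± 162.5 normalized counts (log2 ratio -1.37, SE 0.0457, limma adjusted p = 6.19e-14). NTRK2, the BDNF receptor, and NTF3, the main ligand of NTRK3, had no read in any library, and a count of 0 allows up to 3 reads per library. SORCS2, a sorting receptor for neurotrophin precursors, had a log2 ratio of -1.08, and PLAT, the protease tissue plasminogen activator, had -1.61 (limma adjusted p = 3.34e-08 and 2.33e-07). FURIN, a convertase that cleaves neurotrophin precursors, had a log2 ratio of 0.15 (limma adjusted p = 0.00466).

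Among partners of NPTX1, the pentraxin receptor NPTXR was the 1 gene of its list that could be tested, and it was at 623.9 ± 59.3 normalized counts in ACC cultures and 986.4 ± 64.2 in control cultures (log2 ratio -0.66, limma adjusted p = 2.14e-07), a change of less than 2-fold. NPTX2, the closest relative of NPTX1, had no read in any library. Of 8 tested NMDA, kainate and delta receptor subunits beside GRIN2B, limma called 0, as did edgeR and DESeq2. At the adjusted p alone 0 were higher and 1 lower, where 21.3% of all genes tested were higher and 21.9% lower. GRIN2D, another NMDA subunit and the most abundant of these, measured 1056.1 ± 25.8 normalized counts in ACC cultures and 1094.1 ± 75.6 in controls (SD, n = 3 each, log2 ratio -0.05, SE 0.0528, limma adjusted p = 0.495). GRIN1, the subunit every NMDA receptor needs, had 35.4, 31.78 and 25.57 normalized counts with ACC and 22.17, 24.0 and 19.94 in control. Of 7 tested GABA-A subunits beside GABRQ, 1 was called lower and 0 higher (4 lower and 0 higher at the adjusted p alone). This was GABRA5, an alpha subunit, which fell from 3552.7 ± 136.4 to 1630.6 ± 35.6 normalized counts (log2 ratio -1.12, limma adjusted p = 1.65e-13). GABRE, an epsilon subunit, named after its values were seen, had -0.95 (limma adjusted p = 1.4e-06), and passed the 2-fold threshold without ACC replicate 2 or control replicate 3.

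Regulators linked to such genes gave 1 call in 2 lists. Of 12 tested genes for REST, a repressor of neuronal genes outside neurons, and its corepressors, limma, edgeR and DESeq2 called 0. At the adjusted p alone 3 were higher and 3 lower, where 21.3% of all genes tested were higher and 21.9% lower. REST itself had 694.09, 619.3 and 645.48 normalized counts with ACC and 697.75, 654.35 and 704.63 in control. These groups overlapped (log2 ratio -0.07, SE 0.0580, limma adjusted p = 0.357). KDM5C, a histone demethylase with the highest mean of that list, had a log2 ratio of 0.17 (limma adjusted p = 0.000693). Of 16 tested CREB family and activity-regulated genes, 1 was called lower and 0 higher (2 higher and 8 lower at the adjusted p alone). It was FOSB, an AP-1 subunit, which fell from 38.4 ± 7.21 to 16.5 ± 7.64 normalized counts (log2 ratio -1.24, limma adjusted p = 0.00161), and lost its call without ACC replicate 1, where its change was under 2-fold. NR4A1, a nuclear receptor induced by calcium and cAMP, had a log2 ratio of 0.08 (limma adjusted p = 0.214).

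The genes with the most similar profile over the 6 libraries were found by the Euclidean distance between mean-centred log2(normalized count + 1) values, among 11428 other genes with a mean of at least 100 in 1 group. Nearest to NPTX1 were SPOCK1, CCBE1 and SPARC, at distances of 0.518, 0.608 and 0.758, with log2 ratios of -3.73, -3.92 and -4.57. Nearest to GRIN2B were DOCK2, SFMBT2 and TSPAN18, at distances of 0.327, 0.425 and 0.445. For BDNF they included TGFB1 and HAVCR1, at distances of 0.0355 and 0.0507, where TGFB1, a growth factor, had a mean of 4479.3 ± 54.9 with ACC and 7180.6 ± 258.6 in the controls (SD, n = 3 each). The other 4 genes were below 100 in both groups. With 2 groups of 3 libraries these distances mostly rank genes by the size of their change.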

How the data were processed

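PolyA-selected RNA of 6 A549 cultures was sequenced. Per the labels and the study's methods, the authors used Cutadapt for trimming, STAR 2.4.2a for mapping to GRCh38, htseq-count for counting and DESeq2 for size factors. The deposited signal values are counts divided by those factors, to 2 decimals. Each library's values were whole multiples of the value of 1 read (100% within 0.1 read), so reads were recovered. The log2 ratios and p-values of the authors' own comparison and a sheet of thresholds were not used.

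Groups and replicate numbers came from the titles. limma 3.58.1 (R 4.3.3) with a mean-variance trend was fitted to log2(normalized count + 1), which shrinks changes of low genes, for genes with a sum of at least 10, with Benjamini-Hochberg adjustment, and was tested on simulated data. Calls also needed a 2-fold change and 30 reads in 1 library, the study's thresholds. edgeR 4.0.16 and DESeq2 1.42.0 on the reads were alternatives, beside other scalings, pseudocounts, filters, a replicate block and leaving out each library. The members and lists were chosen with earlier results of these data known. Named related genes are up to 4 called genes of each list with the smallest adjusted p and the most abundant gene not called, and named neighbours are the 3 nearest profiles. CHGA, GRIN1, GABRE, REST and the flanking genes were added after their values were seen. Exon lengths and coordinates are from GENCODE 44 on GRCh38, a later annotation than the one used for counting. Promoter windows are from RefSeq. Some genes that these rules name are not reported here.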

Additional observations from a re-analysis of the deposited data

How the results depend on the processing

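The direction of all 7 genes held under all 15 alternatives, but this was largely fixed in advance. The genes were chosen on this contrast and their groups did not overlap, so leaving out a library could not reverse a direction. The log2 ratio ranged from -4.18 to -4.00 for NPTX1, from -0.69 to -0.65 for BDNF, from -1.41 to -1.10 for SCG2, from -2.92 to -1.84 for PTPRN, from 0.95 to 1.23 for SCG5, from -2.50 to -2.25 for GRIN2B and from -1.79 to -1.45 for GABRQ. SCG5 missed the 2-fold threshold without control replicate 3, and the other calls among the 7 held. Called genes numbered 968, and between 919 and 1002 with 1 library left out. Related genes called higher, 2 in the main comparison, were 1 with a pseudocount of 5 and 1 to 2 with 1 library left out, RPH3A being the gene lost. With the replicate number as a block, 968 genes and 10 related genes were called, as without it. Libraries with the same number did not deviate together (correlations -0.119, 0.049 and -0.053 over 12298 genes, and 1 of 6 libraries correlated best with its own number), so the numbers were not taken as pairs. Median shifts over all genes under other scalings were at most 0.002, and the largest of any alternative was 0.008, with edgeR on the reads. Depth limits PTPRN most, which had 1 to 7 reads with ACC.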

Other observations

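Of 8 tested markers of pulmonary neuroendocrine cells, 5 were higher with ACC and 1 lower at the adjusted p alone, where 21.3% of all genes tested were higher and 21.9% lower. The list median log2 ratio was 0.22, against 0.00 for all genes tested. Past the fold and read thresholds too, 1 was called higher and 0 lower, where 5.01% of all genes tested were called. It was DDC, the enzyme that makes dopamine and serotonin from their precursors, with 50.31, 46.23 and 53.19 normalized counts with ACC and 5.78, 13.34 and 15.19 in control (log2 ratio 2.13, SE 0.292, limma adjusted p = 9.03e-06). UCHL1, which makes up most of the summed level of that list, measured 13443.5 ± 60.2 normalized counts in ACC cultures and 11182.3 ± 42.6 in controls (SD, n = 3 each, log2 ratio 0.27, limma adjusted p = 1.16e-06).

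Of 9 tested neuron markers, 2 were higher with ACC and 5 lower at the adjusted p alone, with a list median log2 ratio of -0.95. With the fold and read thresholds 1 was called higher and 1 lower. RBFOX3, which encodes the neuronal nuclear antigen NeuN, an RNA splicing factor, rose from 737.0 ± 100.5 in control to 2753.4 ± 45.2 (SD, n = 3 each, log2 ratio 1.91, SE 0.0701, limma adjusted p = 2.08e-13). NEFL, the neurofilament light chain, fell from 71.4 ± 14.7 to 31.3 ± 5.66 (log2 ratio -1.16, limma adjusted p = 7.59e-05).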
